A study of Mus musculus with 6 samples.

Results

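The genes described here are the ribosomal RNA (rRNA) processing factors, the RNA exosome and their nucleolar partners in mouse Melb-a cells, an immortal melanoblast line from C57BL/6J skin. They were taken by gene symbol: every gene named Rrp, Exosc, Utp, Nop, Nol or Polr1 with a number (Polr1a to Polr1h), plus Dis3, Fbl, Ncl, Npm1, Nolc1, Bop1, Pes1, Wdr12, Wdr43, Gnl3, Dkc1, Bms1, Imp3 and Imp4. Of the 35275 gene IDs in the count table, 64 met this rule, and 63 had enough reads to be tested. The member that did not was Nol4, with at most 2 counts in any library. Exosc6, Polr1f, Polr1g and Polr1h are not analysed here. The symbols decide membership, but the set was put together with the iBRD9 and DMSO values of the Rrp-named genes already known. The differences of all members between the groups are therefore given as a description and support nothing further. No p-value is printed for a member. The calls given below only mark which rows passed the threshold used for all genes.

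All cells were moved for 48 h to DMEM with 10% serum, 2 nM of the melanocyte stimulating hormone analog NDP-alpha MSH and 200 nM of the phorbol ester PMA, which activates protein kinase C. The medium of 3 independent samples also held 10 µM iBRD9, and that of 3 others the vehicle DMSO. iBRD9 is an inhibitor that occupies the bromodomain of BRD9. BRD9 is part of a form of SWI/SNF, a chromatin remodeler, and the series asks how that remodeler bears on pigmentation. A single cell line, dose and time were measured, so the values describe this line only.

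Ribosomes are built in the nucleolus. RNA polymerase I makes a long precursor rRNA, small nucleolar ribonucleoproteins (snoRNPs) modify it and guide its cleavage, and large assemblies of processing factors fold and cut it into the RNAs of the small and the large subunit. The RNA exosome, a ring of Exosc proteins with the nucleases Dis3 and Exosc10, trims the cut ends and degrades the spacers and faulty RNA. Many mammalian factors carry the names of their budding yeast counterparts, among them the Rrp (ribosomal RNA processing) and Utp names. In growing cells most of these genes are expressed together, since each ribosome needs all of the steps.

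The libraries held 22846391 to 29680952 counts with iBRD9 and 23248475 to 26675006 with DMSO. All 8 melanocyte lineage markers (Tyr, Tyrp1, Dct, Pmel, Mlana, Mitf, Sox10 and Kit) were above 10 CPM on average (CPM is a gene's count scaled to the size of its library), and their summed level was 15100 to 16600 CPM with iBRD9 and 15800 to 17900 CPM with DMSO. Within that sum, Tyr (87.7 CPM with iBRD9 and 537 CPM with DMSO), Tyrp1, Mlana and Sox10 were called lower, Dct (7520 CPM with iBRD9 and 6070 CPM with DMSO) higher, and Pmel, Mitf and Kit did not pass. The 7 keratinocyte markers summed to 3.84 to 4.41 CPM with iBRD9 and 3.54 to 4.29 CPM with DMSO, with Krt5 and Krt1 at 0, and the 6 leukocyte markers to 5.48 to 6.33 CPM with iBRD9 and 6.20 to 7.76 CPM with DMSO, with Ptprc and Cd3e at 0. The 6 fibroblast markers summed to 131 to 145 CPM with iBRD9 and 75.2 to 99.7 CPM with DMSO, with Dcn (120.4 CPM with iBRD9 and 51.2 CPM with DMSO) and Col1a1 called higher and Col1a2 (7.63 CPM with iBRD9 and 29.5 CPM with DMSO) lower. The 6 Schwann cell markers summed to 55.4 to 59.1 CPM with iBRD9 and 239 to 329 CPM with DMSO; 0 genes of the fibroblast or Schwann cell list were at 0 in every library. The part of these markers in the results was not tested. In bulk RNA, fewer cells of a type and less RNA per cell cannot be told apart. DMSO replicate 1 differed most within its group, with a chi-square per degree of freedom of 29.2 and 37.5 against DMSO replicates 2 and 3, which gave 3.06 against each other.

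Of the 63 tested members, 22 were called higher with iBRD9 and 17 lower, and 24 did not pass. Calls are those with an adjusted p under 0.05 in the edgeR quasi-likelihood test over all 13602 tested genes, of which 60.7% were called, 29.8% higher and 30.9% lower. The called share of the members was 61.9%, near that of all genes. Their median log2 fold change (iBRD9 over DMSO) was 0.03 and that of all tested genes 0.01. When libraries were scaled by their size alone, these medians were 0.14 and 0.11. Without DMSO replicate 1, 26 members were called higher and 23 lower, where 74.7% of all genes were called. The groups did not overlap in 42 members; of all tested genes 68.0% had such groups, 33.9% with iBRD9 higher and 34.1% with iBRD9 lower.

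The differences of the members were very uneven in size. At least 2-fold differences were called in 11 members, all higher with iBRD9, and in 0 members that were lower. Of all tested genes, 9.41% were called higher at 2-fold or more and 5.46% lower. These 11 were all 8 Rrp-named genes, the exosome genes Exosc5 and Dis3, and Nol3. In 9 of them the difference was 4-fold or more, as in 1.93% of all genes. The remaining 52 tested members ran from -0.84 to 0.94 on the log2 scale, with 11 called higher and 17 lower. Since the Rrp-named genes were known to be low with DMSO when the set was put together, nothing is read from these counts.

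**Figure D1:**
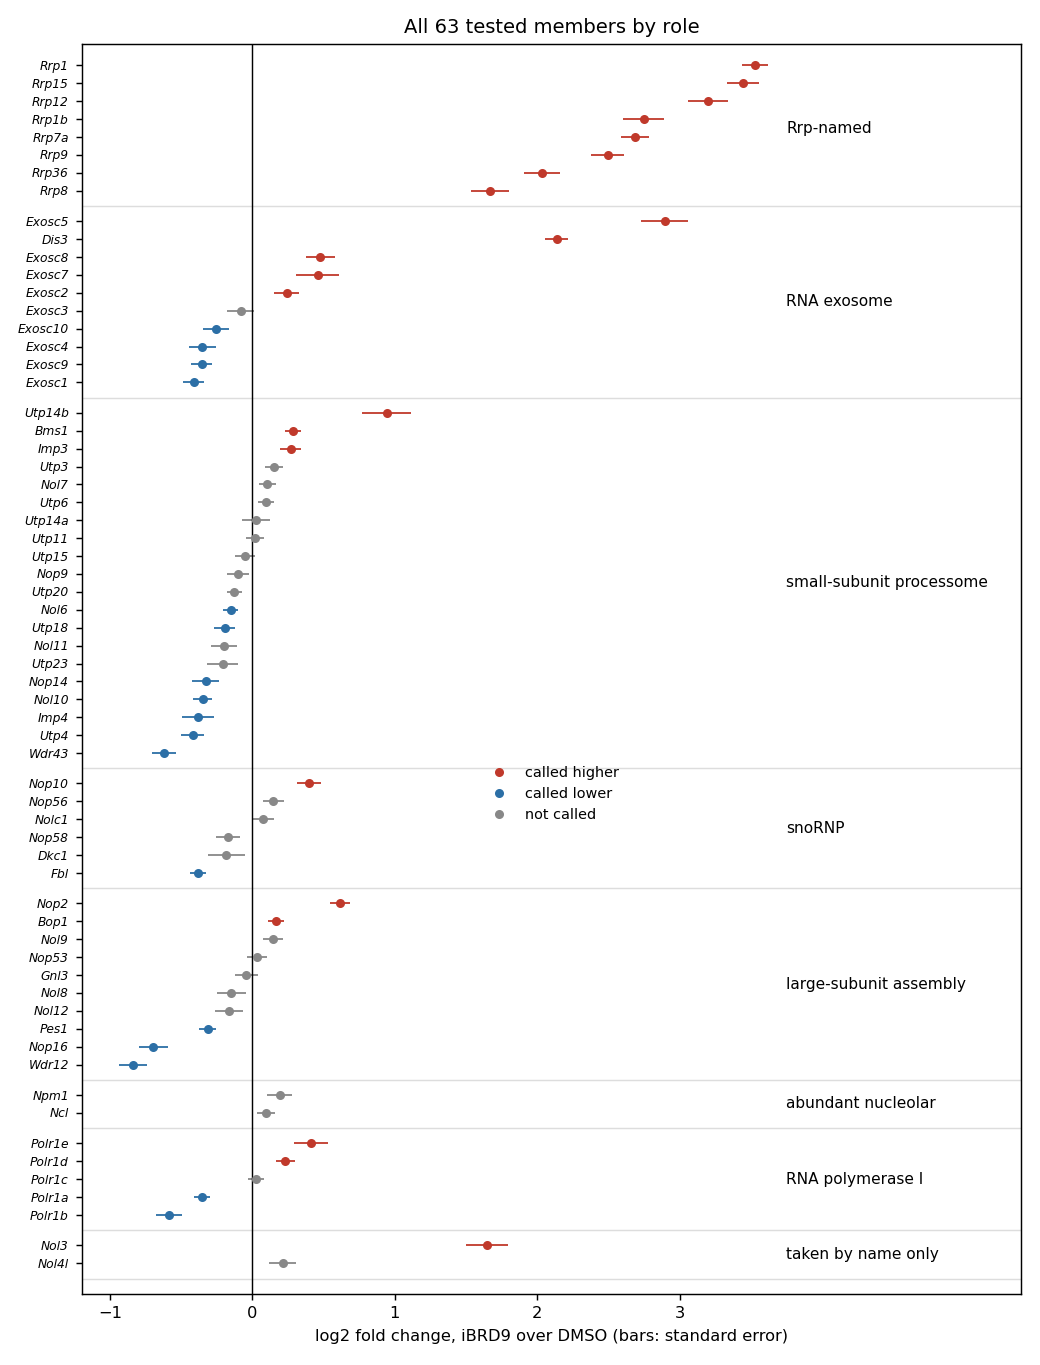
Log2 fold change of iBRD9 over DMSO (x axis) for each of the 63 tested members (y axis), grouped by role; points are estimates from 3 libraries per group, bars are standard errors, and colour shows the call. The 8 Rrp-named genes lie between 1.67 and 3.53, together with Exosc5 (2.89), Dis3 (2.14) and Nol3 (1.65), while the other 52 members lie within 0.94 of 0.

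Upstream sequence is shown for 3 of the 11 genes: Rrp1, which had the largest difference, and Exosc5 and Rrp7a, whose promoters hold the E-box CACGTG, a letter string bound by MYC and by the melanocyte factor MITF. Each run is the 250 bases before the transcription start, 5′ to 3′ on the gene's strand, from RefSeq on the mouse build GRCm38.p6, an older build than the GRCm39 that the submitters name. Capitals mark matches to the motifs searched. Exosc5 lies on chromosome 7 (chr7:25658903-25659152, plus strand), Rrp7a on chromosome 15 (chr15:83122802-83123051, minus strand) and Rrp1 on chromosome 10 (chr10:78413044-78413293, minus strand).
Exosc5: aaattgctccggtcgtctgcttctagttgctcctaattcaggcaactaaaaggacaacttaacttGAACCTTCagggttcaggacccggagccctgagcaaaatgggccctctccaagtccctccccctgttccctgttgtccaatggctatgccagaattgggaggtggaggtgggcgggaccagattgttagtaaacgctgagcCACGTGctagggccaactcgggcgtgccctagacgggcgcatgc
Rrp7a: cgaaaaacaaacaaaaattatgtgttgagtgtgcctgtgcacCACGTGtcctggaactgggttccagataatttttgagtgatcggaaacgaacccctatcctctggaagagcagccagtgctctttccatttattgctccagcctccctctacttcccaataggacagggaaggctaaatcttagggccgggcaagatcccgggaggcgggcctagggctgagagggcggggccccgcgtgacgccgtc
Rrp1: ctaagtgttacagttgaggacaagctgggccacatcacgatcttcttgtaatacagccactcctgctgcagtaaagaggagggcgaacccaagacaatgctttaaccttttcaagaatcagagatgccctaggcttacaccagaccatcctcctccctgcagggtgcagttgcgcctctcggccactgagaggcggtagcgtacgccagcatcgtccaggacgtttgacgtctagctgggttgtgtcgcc
In Exosc5 the E-box begins 44 bases before the start and a match to the heat shock element core GAANNTTC begins 185 bases before it, and in Rrp7a the E-box begins 208 bases before the start. No motif was found in the stretch of Rrp1.

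The search covered 300 bases per listed start (250 before and 50 after), on both strands. Besides the E-box and the heat shock element core, the letters searched were those of the M-box core CATGTG. The fourth motif was CCGGAAGT, an ETS factor site. CACGTG and GAANNTTC are their own reverse complements, and the matches in the printed stretches do not overlap. RefSeq's table held 59 starts for 51 of the 64 members. CACGTG was in 11 of these 59 promoters (18.6%), against 7.15% of all 32851 promoters, and CCGGAAGT was in 8 (13.6%), against 3.89%. CATGTG was in 9 (15.3%), against 14.2%, and GAANNTTC in 3 (5.08%), against 7.86%. The 12 promoters listed for 9 of the 11 genes with 2-fold differences held CACGTG in 2 (16.7%), CATGTG in 1 (Rrp9), CCGGAAGT in 1 (Rrp15) and GAANNTTC in 1 (Exosc5). The 47 promoters of the other members held CACGTG in 9 (19.1%). The 10 promoters listed for Rrp-named genes held it in 1 (10%). Whether these shares differ was not tested. Rrp12 and Nol3 had no entry.

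All 8 Rrp-named genes were low in every DMSO library and several-fold higher in every iBRD9 library. Their log2 fold changes had a median of 2.72 and ran from 1.67 to 3.53, and in each of the 8 the lowest iBRD9 library was above the highest DMSO library (33.9% of all tested genes had groups apart in that direction). Together they took 0.0446% to 0.0452% of all counts in the iBRD9 libraries and 0.00467% to 0.00554% in the DMSO libraries. All 8 calls were kept under each of the 13 processing alternatives tried. The alternatives reuse the same deposited counts, so a kept call adds no support and does not bear on read handling before deposit. The DMSO columns were low together, and the table holds no information on single reads, so a change in RNA level and unequal handling of the groups' reads before deposit cannot be told apart.

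Rrp1 (ENSMUSG00000061032) and Rrp1b (ENSMUSG00000058392) encode nucleolar relatives of a yeast factor of large-subunit rRNA processing. Rrp1 had 199.7, 197 and 197 CPM in the iBRD9 libraries, against 15.1, 19.3 and 17.0 CPM in the DMSO libraries. Every iBRD9 library was above every DMSO library, and the log2 fold change was 3.53 (SE 0.091), a fold of 11.5. Rrp1b had 32.4, 33.2 and 35.02 CPM with iBRD9, against 6.29, 4.61 and 4.09 CPM with DMSO, a log2 fold change of 2.75 (SE 0.142). DMSO replicate 1 was the highest DMSO library for Rrp1b and the lowest for Rrp1. Rrp15 (ENSMUSG00000001305), a factor of large-subunit assembly, had 40.8, 43.2 and 43.3 CPM with iBRD9, against 3.69, 4.57 and 3.37 CPM with DMSO. Its groups did not overlap, with a log2 fold change of 3.45 (SE 0.113), a fold of 10.9.

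Rrp7a, Rrp9 and Rrp36 act on the small subunit. Rrp9 (ENSMUSG00000041506), a protein of the snoRNP that guides the first cleavages of the precursor, had 27.6, 24.4 and 30.0 CPM with iBRD9, against 4.55, 5.36 and 4.59 CPM with DMSO, a log2 fold change of 2.49 (SE 0.117). Rrp7a (ENSMUSG00000018040) had 49.1, 50.6 and 50.8 CPM with iBRD9, against 8.46, 8.28 and 6.61 CPM with DMSO, a log2 fold change of 2.69 (SE 0.098). In both genes the libraries of each group lay close to each other and far from the other group. Rrp36 (ENSMUSG00000023971) had 24.5, 22.2 and 22.8 CPM with iBRD9, against 6.85, 5.28 and 4.89 CPM with DMSO, a log2 fold change of 2.03 (SE 0.129). Of these 3 genes it had the smallest difference, and its groups did not overlap either.

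Rrp12 and Rrp8 have other roles. Rrp12 (ENSMUSG00000035049), whose yeast counterpart helps precursor ribosomes leave the nucleus, had 43.1, 48.1 and 44.9 CPM with iBRD9, against 4.08, 6.19 and 4.47 CPM with DMSO, a log2 fold change of 3.20 (SE 0.141). Rrp8 (ENSMUSG00000030888), a methyltransferase of the nucleolus, had 12.3, 15.0 and 12.5 CPM with iBRD9, against 3.69, 4.65 and 4.13 CPM with DMSO. The difference in Rrp8, 1.67 on the log2 scale (SE 0.133), was the smallest of the 8, and its groups still did not overlap. The spread between libraries, as the coefficient of variation, had a median of 4.54% with iBRD9 and 14.6% with DMSO over the Rrp-named genes, and of 4.47% with iBRD9 and 8.21% with DMSO over the other 55 tested members. Over all tested genes these medians were 5.13% with iBRD9 and 10.7% with DMSO.

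**Figure D2:**
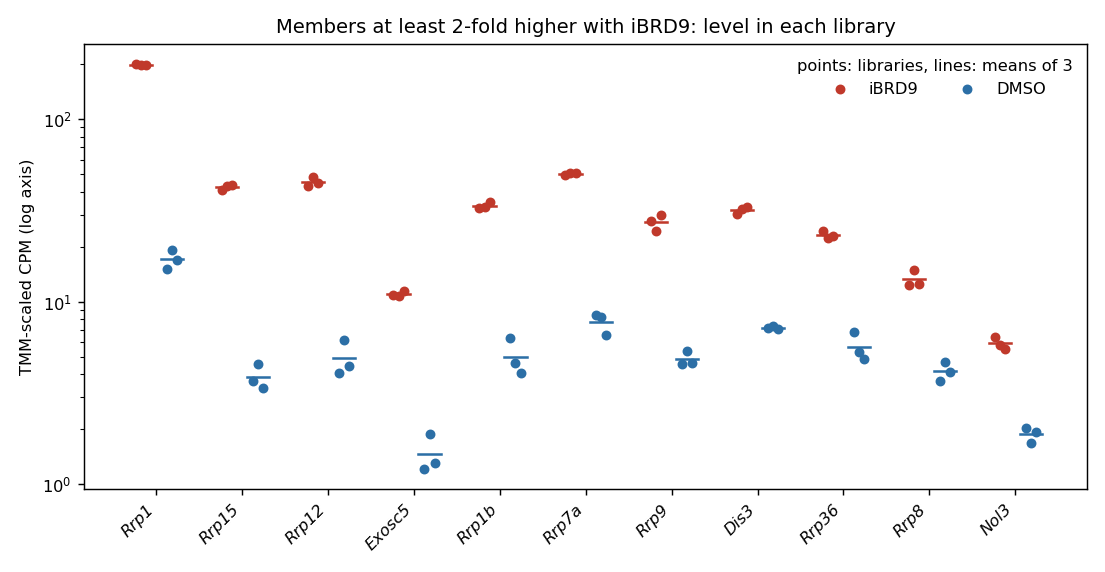
Level of the 11 members that were at least 2-fold higher with iBRD9 (TMM-scaled CPM, log axis), in order of their log2 fold change; each point is 1 library and each line the mean of 3. In every gene the iBRD9 libraries lie above the DMSO libraries, from Rrp1 (on average 198 CPM with iBRD9 and 17.1 CPM with DMSO) to Nol3 (5.92 CPM with iBRD9 and 1.89 CPM with DMSO).

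The 10 exosome genes did not move as a unit: 5 were called higher, 4 lower and 1 did not pass, with a median log2 fold change of 0.08. Of all tested genes, 29.8% were called higher and 30.9% lower. Exosc5 (ENSMUSG00000061286), a ring subunit known in yeast as Rrp46, had 10.9, 10.8 and 11.4 CPM in the iBRD9 libraries, against 1.21, 1.89 and 1.31 CPM in the DMSO libraries, a log2 fold change of 2.89 (SE 0.166). Dis3 (ENSMUSG00000033166), the processive nuclease known in yeast as Rrp44, had 30.2, 32.2 and 32.9 CPM with iBRD9, against 7.16, 7.37 and 7.12 CPM with DMSO, a log2 fold change of 2.14 (SE 0.081). Both were low in all DMSO libraries, as the Rrp-named genes were, and both calls were kept under all 13 alternatives. These alternatives reuse the same counts. The next largest difference in the ring was that of Exosc8, with 43.3, 47.6 and 44.4 CPM with iBRD9, against 37.7, 29.4 and 30.2 CPM with DMSO, and a log2 fold change of 0.48 (SE 0.101). Exosc7 (0.46) and Exosc2 (0.24) were also called higher, and these calls were lost in 5 and 7 of 13 alternatives.

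The subunits on the other side were called lower by small amounts. Exosc1, a cap subunit that links the ring to its nucleases, had 24.8, 24.2 and 26.4 CPM with iBRD9, against 31.6, 35.2 and 33.5 CPM with DMSO, a log2 fold change of -0.41 (SE 0.073). Exosc9 stood at -0.36 (SE 0.076) and Exosc4, known in yeast as Rrp41, at -0.35 (SE 0.098), both with groups that did not overlap; the call of Exosc4 was lost in 3 of 13 alternatives. Exosc10, the second nuclease and the counterpart of yeast Rrp6, had 85.2, 92.0 and 91.9 CPM with iBRD9, against 91.9, 116 and 113 CPM with DMSO. Its groups overlapped, and its call (-0.26, SE 0.092) was lost in 7 of 13 alternatives. Exosc3 did not pass (-0.08, SE 0.096).

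The small-subunit processome, the assembly on the early precursor that holds the Utp proteins, had calls in both directions. Of its 20 tested members without an Rrp name 3 were called higher, 7 lower and 10 did not pass (median log2 fold change -0.11), where 29.8% of all tested genes were called higher and 30.9% lower. The split depended on scaling and on single libraries, with 6 called higher and 5 lower under library size alone, and 4 of each without iBRD9 replicate 1 and 3 of each without DMSO replicate 2. Wdr43, the counterpart of a yeast Utp protein, had 95.1, 103 and 97.5 CPM in the iBRD9 libraries, against 133, 157 and 164 CPM in the DMSO libraries, a log2 fold change of -0.62 (SE 0.083). Utp4, of the same subcomplex, was also lower (-0.42, SE 0.080), with 55.6, 60.8 and 62.6 CPM with iBRD9, against 72.4, 84.7 and 82.3 CPM with DMSO. In neither gene did the groups overlap. The Imp proteins, which work with Mphosph10, were called in opposite directions, Imp4 at -0.38 (SE 0.111) and Imp3 at 0.27 (SE 0.076). The call of Imp4 was lost in 5 of 13 alternatives and that of Imp3 in 4. The GTPase gene Bms1 was higher, with 153, 157 and 161 CPM with iBRD9, against 136, 126 and 125 CPM with DMSO (log2 fold change 0.29, SE 0.057).

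Utp14b stood at the top of this group, with 102, 104 and 108 CPM in the iBRD9 libraries, against 72.9, 47.4 and 43.0 CPM in the DMSO libraries, a log2 fold change of 0.94 (SE 0.172). The groups did not overlap, and DMSO replicate 1 was the DMSO library nearest to iBRD9, as in 70.5% of all called genes. Without that library the log2 fold change was 1.21, and with library size alone 1.04. In mice Utp14b is a retrogene copy of the X-linked Utp14a and is known for its role in male germ cells. It shares 244 exon bases on the same strand with Acsl3, a fatty acid enzyme gene, which itself had 21331 counts over the iBRD9 libraries and 10152 over the DMSO libraries, so reads of the pair may have been split. Utp14a did not pass (0.03, SE 0.095), with 20.7, 19.2 and 18.3 CPM with iBRD9, against 19.96, 17.1 and 20.3 CPM with DMSO.

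Of the 6 snoRNP genes 1 was called higher, 1 lower and 4 did not pass. Over all tested genes 29.8% were called higher and 30.9% lower. Under library size alone 3 snoRNP genes were called higher and 1 lower, with Nop56 and Nolc1 added. Fbl, the methyltransferase of box C/D snoRNPs, had 56.2, 55.2 and 55.5 CPM with iBRD9, against 74.2, 71.3 and 72.0 CPM with DMSO. Its groups were well apart, with a log2 fold change of -0.38 (SE 0.055). Its partners Nop56 (139 ± 4.74 CPM with iBRD9 and 126 ± 11.4 CPM with DMSO, SD, n = 3) and Nop58 (96.1 ± 5.35 CPM with iBRD9 and 108 ± 10.53 CPM with DMSO) had log2 fold changes of 0.15 and -0.17 and did not pass, and their groups overlapped. Nop56 was called higher without DMSO replicate 3 (0.21) and with library size alone (0.25), and Nop58 lower without DMSO replicate 1 (-0.22). The pseudouridine synthase gene Dkc1, of box H/ACA snoRNPs, had 24.3, 23.6 and 25.1 CPM with iBRD9, against 33.8, 25.7 and 23.3 CPM with DMSO, and did not pass (-0.18, SE 0.130). Nop10, a small protein of the same particle, was higher, with 22.9, 23.1 and 24.3 CPM with iBRD9, against 19.3, 17.3 and 16.8 CPM with DMSO (0.40, SE 0.082). Nolc1, which escorts snoRNPs, did not pass (0.08, SE 0.079).

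Among the 10 tested large-subunit assembly factors without an Rrp name, 2 were called higher, 3 lower and 5 did not pass (median log2 fold change -0.09). The shares over all tested genes were 29.8% higher and 30.9% lower. The complex of Pes1, Bop1 and Wdr12, which is needed for the large-subunit RNAs to mature, did not move together. Wdr12 had 32.0, 31.0 and 33.7 CPM with iBRD9, against 49.3, 64.0 and 59.6 CPM with DMSO, a log2 fold change of -0.84 (SE 0.099), the lowest of all tested members. Pes1 was lower by less (-0.32, SE 0.058), with 63.6, 64.1 and 62.8 CPM with iBRD9, against 75.4, 80.6 and 81.0 CPM with DMSO. Bop1 was called higher (0.16, SE 0.057), and that call was lost in 8 of 13 alternatives. Nop16 was lower (-0.70, SE 0.1003), with 19.3, 23.4 and 22.7 CPM with iBRD9, against 31.7, 37.0 and 37.1 CPM with DMSO. Nop2, an rRNA methyltransferase, was higher (0.62, SE 0.069), with 77.6, 84.9 and 82.6 CPM with iBRD9, against 56.1, 54.0 and 49.7 CPM with DMSO. Gnl3, also called nucleostemin, was among those that did not pass (-0.04, SE 0.080).

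The 2 abundant nucleolar proteins did not pass. Nucleolin (Ncl), which binds precursor rRNA, had 892, 1009 and 981 CPM in the iBRD9 libraries, against 890.3, 907 and 903 CPM in the DMSO libraries (log2 fold change 0.09, SE 0.064). Nucleophosmin (Npm1), a chaperone of ribosomal proteins, had 529, 555 and 542 CPM with iBRD9, against 545, 440.3 and 440.0 CPM with DMSO (0.19, SE 0.088). The groups overlapped in both, in Npm1 through DMSO replicate 1, and without that library Npm1 was called higher (0.30). Both were also called higher when libraries were scaled by their size alone (0.20 for Ncl and 0.29 for Npm1). Whether the authors' counting split reads of Npm1 with related copies was not tested.

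RNA polymerase I subunits went both ways, with 2 of 5 called higher and 2 lower. Such calls are common here, with 29.8% of all tested genes called higher and 30.9% lower. Polr1a, the largest subunit and part of the active site, had 113, 113 and 117 CPM with iBRD9, against 139.8, 150.2 and 149 CPM with DMSO, a log2 fold change of -0.35 (SE 0.056). Polr1b, the other large subunit of the active site, had 21.6, 22.7 and 25.7 CPM with iBRD9, against 37.7, 35.1 and 32.4 CPM with DMSO, a log2 fold change of -0.59 (SE 0.092). In both genes the iBRD9 libraries lay below every DMSO library. The smaller subunit genes Polr1e (0.41, SE 0.118) and Polr1d (0.23, SE 0.065) were called higher, and these calls were lost in 3 and 4 of 13 alternatives; both were lost without iBRD9 replicate 2 or DMSO replicate 2. Polr1c did not pass (0.03, SE 0.057).

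The name rule also took 3 genes with no rRNA processing role assigned here, Nol3, Nol4 and Nol4l. Nol3, an inhibitor of apoptosis, had 6.43, 5.80 and 5.53 CPM with iBRD9, against 2.04, 1.69 and 1.94 CPM with DMSO, a log2 fold change of 1.65 (SE 0.149). Its groups did not overlap. In the annotation 1531 of its 3176 exon bases are shared with 4931428F04Rik on the opposite strand, a gene with 575 counts over the iBRD9 libraries and 154 over the DMSO libraries. The kit is not described as marking strand and the strand setting is not given. Whether reads over the shared bases of such pairs were told apart is therefore not known. Nol4l did not pass (0.21, SE 0.095).

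**Figure D3:**
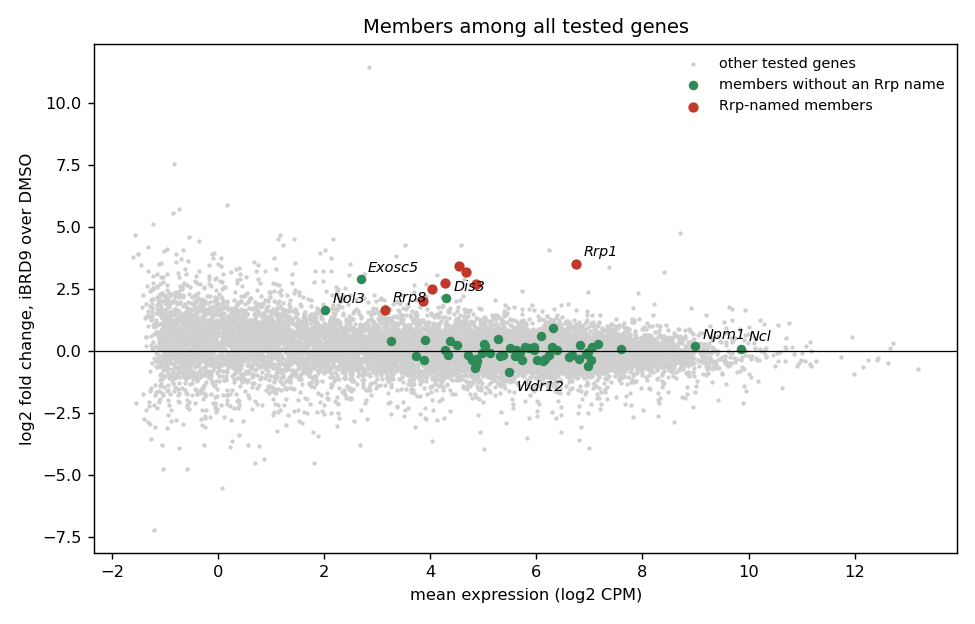
Log2 fold change of iBRD9 over DMSO (y axis) against mean expression in log2 CPM (x axis) for all 13602 tested genes in grey, with the 8 Rrp-named members in red and the other 55 tested members in green. The Rrp-named genes, Exosc5, Dis3 and Nol3 lie above the band that holds most members, which runs from -0.84 to 0.94.

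Set beside each other per length, as mean CPM per kilobase of exon, the 11 genes with 2-fold differences had levels from 1.76 to 59.3 with iBRD9 (median 9.27), against 0.235 to 5.13 with DMSO (median 1.17). The other 52 tested members had a median of 13.2 with iBRD9 and 12.5 with DMSO. By this measure the 8 Rrp-named genes ranked between 3 and 58 among the 63 tested members with iBRD9 and between 45 and 61 with DMSO. Rrp1 ranked 3, after Npm1 and Ncl, with iBRD9, and 45 with DMSO. Exosc5 had the lowest tested level of all in both groups, with 1.76 per kilobase for iBRD9 and 0.235 for DMSO. Lengths are those of all annotated exons joined, in GENCODE M21 on GRCm38, and transcripts in use may be shorter.

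**Figure D4:**
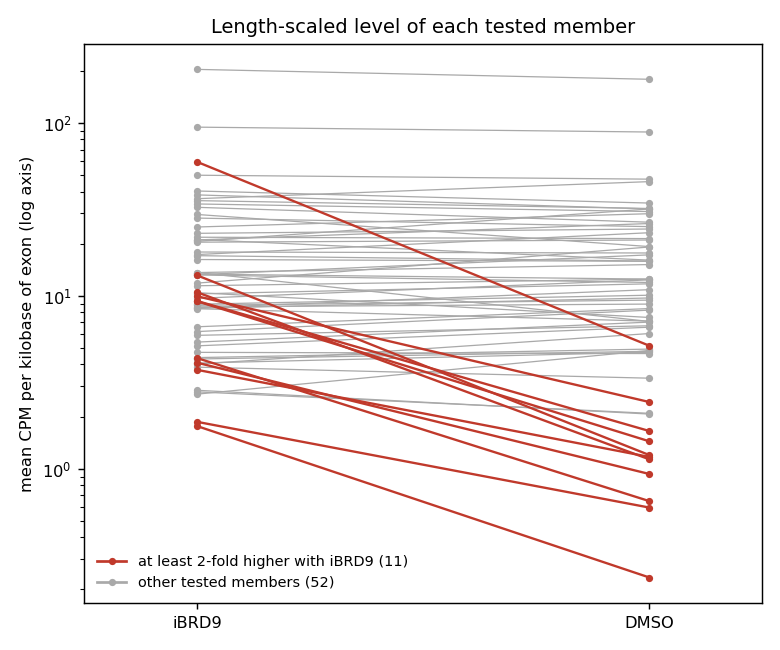
Mean CPM per kilobase of exon (log axis) of each tested member with iBRD9 (left) and with DMSO (right), joined by a line; the 11 members called higher at 2-fold or more are in red and the other 52 in grey. The red genes span 1.76 to 59.3 with iBRD9 and 0.235 to 5.13 with DMSO, while most grey lines are nearly level.

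The 11 genes shared no common place in the genome: by the GENCODE M21 annotation they lie on 9 chromosomes. Rrp7a on chromosome 15, Rrp36 and Rrp1b on chromosome 17, Rrp8 and Exosc5 on chromosome 7, Rrp15 on chromosome 1, Rrp9 on chromosome 9, Rrp1 on chromosome 10, Dis3 on chromosome 14, Rrp12 on chromosome 19 and Nol3 on chromosome 8 make up the set. Exon bases are shared with another gene in 7 of the 11 and with none in 4, namely Rrp1, Rrp12, Rrp15 and Rrp36. Rrp7a shares 678 bases with Serhl on the opposite strand, which had 1119 counts over the iBRD9 libraries and 560 over the DMSO libraries. Exosc5 shares 355 with Tmem91 (123 counts with iBRD9 and 24 with DMSO), and Dis3 shares 325 with Pibf1 (1010 counts with iBRD9 and 1241 with DMSO). Rrp8 shares 355 with Ilk, which had 0 counts with iBRD9 and 1 with DMSO. How the authors' counting assigned reads over these bases is not given, so the low count need not mean that Ilk is silent. Rrp1b shares 54 with Hsf2bp (19 counts with iBRD9 and 7 with DMSO). Rrp9 shares 20 with Parp3 (1592 counts with iBRD9 and 1205 with DMSO). The part of shared exon bases in these values was not tested.

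Ribosome biogenesis genes outside the name rule were taken from a list that was also drawn up with earlier results of these data known. The genes named from it are those with the largest called changes, so their values are a description. The list's 83 tested genes include other processome and assembly factors, exosome cofactors, polymerase I factors and Myc. Of these 83, 21 rose, 30 fell and 32 did not pass (edgeR quasi-likelihood test, adjusted p under 0.05, with 60.7% of all genes called). At 2-fold or more 0 rose and 0 fell, against 9.41% and 5.46% of all genes, but several lay near that limit: Taf1a (1.00) and Taf1d (1.04) passed it without DMSO replicate 1, and Myc did without iBRD9 replicate 2 (-1.04), iBRD9 replicate 3 (-1.01), DMSO replicate 2 (-1.06) or DMSO replicate 3 (-1.05). Their median log2 fold change was -0.10, and 0.00 when libraries were scaled by size alone. Without iBRD9 replicate 3 the number that rose was 13. Myc is a transcription factor known to drive many ribosome biogenesis genes. It fell to 35.6 ± 2.65 CPM with iBRD9, against 70.7 ± 11.1 CPM with DMSO (SD, n = 3). Its log2 fold change was -0.99 (SE 0.114). The part of Myc in the values of the other genes was not tested. Nhp2, the partner of Dkc1 and Nop10, fell to 46.8 ± 2.71 CPM with iBRD9, against 89.3 ± 5.83 CPM with DMSO (-0.93). The falls of Nmd3 (-0.72), an export adaptor of the large subunit, and Wdr74 (-0.72) came next.

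The rises outside the name rule were of similar size. Of 7 polymerase I factors tested, 3 rose, 2 fell and 2 did not pass (29.8% of all genes were called higher and 30.9% lower). Taf1a, of the promoter factor SL1, stood at 13.9, 12.5 and 12.5 CPM with iBRD9, against 9.93, 6.94 and 6.02 CPM with DMSO (0.77). Its fellow subunit Taf1d stood at 35.4, 34.8 and 34.9 CPM with iBRD9, against 28.2, 16.2 and 17.99 CPM with DMSO (0.75). In both the groups did not overlap, as in 68.0% of all tested genes. DMSO replicate 1 was the DMSO library nearest to iBRD9 in both, as in 70.5% of all 8262 called genes. Among 6 exosome cofactors 3 rose and 2 fell, and the largest change was that of Zcchc8, of the nuclear exosome targeting complex (0.59). The RNA helicase gene Ddx55 rose by 0.68 on the log2 scale.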

How the data were processed

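Raw read counts per Ensembl gene ID were deposited by the authors, with 1 column per library. The submitters' processing notes list CASAVA 1.8.2, Bowtie2 2.4.5 and GRCm39. Which program counted the reads, with which annotation, strand setting and filters, is not given in the sources used here. Per the labels' protocols, poly(A) RNA was selected and libraries were primed with random hexamers.

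Symbols were found for 34490 of 35275 IDs. Counts were used as deposited, and 13602 genes passed edgeR's filterByExpr (minimum count 10). iBRD9 was compared with DMSO in all 6 libraries (3 per group) by the quasi-likelihood F-test of edgeR 4.0.16 (R 4.3.3; TMM scaling, robust dispersions, Benjamini-Hochberg adjustment over all tested genes). The biological coefficient of variation was 0.0921. CPM values are TMM-scaled, and a standard error is the log2 fold change divided by the square root of F. The procedure was tested on data simulated with the same dispersion for every gene and no deviating library, unlike the real counts. No replicate pair was a duplicate (lowest chi-square per degree of freedom 1.93).

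Members and lists were chosen with earlier results of these data known. Named genes are all Rrp-named members, Fbl, Ncl, Npm1, Nop56, Nop58, Dkc1, Exosc10, Dis3, Polr1a and Polr1b, up to 3 called members per direction and role, and up to 4 other pathway genes per direction whose mean log2 CPM reached 1; other names were added after their values were seen. Overlaps and lengths come from GENCODE M21. The 13 alternatives were DESeq2 size factors, library size alone, DESeq2 1.42.0, no filter, 1 CPM in 3 libraries, a replicate block, a 0.01 threshold on the adjusted p, and each library left out in turn.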

Additional observations from a re-analysis of the deposited data

How the results depend on the processing

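Of the 39 called members, 27 kept their call and direction under all 13 alternatives, and 12 lost it under at least 1. The 27 include all 11 with 2-fold differences. All alternatives draw on the same deposited counts, so a kept call is no further support. Leaving out a library gave 17 to 26 members called higher and 12 to 23 lower, with 8 Rrp-named genes higher each time, and 13 to 22 other pathway genes called higher. At an adjusted p under 0.01, 16 members were higher and 11 lower, and 13 other pathway genes were higher. Fewer calls there follow from the stricter threshold; the cause of the other shifts was not tested. Library size alone moved the median log2 fold change of all genes by 0.11 (0.1058), and gave 4995 genes called higher and 3388 lower, with 31 and 14 among the members (68.9% of calls higher, against 56.4% with TMM); the members' median was then 0.14. It was 0.04 to 0.07 without any 1 library. Same-numbered deviations correlated at 0.118, 0.06 and 0.025. iBRD9 replicates 1 and 2 correlated best with the DMSO library of the same number, and iBRD9 replicate 3 with DMSO replicate 2 (0.04). With 3 libraries per group, these small values do not settle whether the replicate numbers pair the libraries. With the replicate block, 21 members were higher and 17 lower. Nol4 had too few counts to test.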
